A study of Mus musculus with 20 samples.

Results

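The genes described here are 10 transcription factors and response genes of the AP-1 and immediate early class (Fos, Fosb, Fosl1, Fosl2, Jun, Junb, Jund, Egr1, Atf3 and Ier2), taken by symbol from a table of 33899 genes. All 10 were present, and all 10 were among the 14242 genes with enough reads to be tested. The table holds adipocyte precursor cells, the cells from which new fat cells form, sorted from the white fat of female C57Bl6/J mice of 8 to 11 weeks. The groups are perigonadal visceral fat (VWAT) after 3 days on a high-fat diet (HFD, 60% lard), VWAT on standard diet (SD, day 0), inguinal subcutaneous fat (SWAT) after the same 3 days of HFD, and SWAT on SD, with 5 libraries each and 3 mice pooled in a library. The sort took CD45- CD31- cells positive for CD29, for CD34 and for Sca1 and did not select on CD24, so each library averages CD24+ and CD24- precursors.

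AP-1 is a dimer of a Jun protein with a Fos protein, with another Jun protein or with a relative of the ATF family. Fos, Fosb, Jun, Junb, Egr1, Atf3 and Ier2 are immediate early genes, which growth factors, serum, stress and mechanical or enzymatic handling of tissue switch on within minutes through MAP kinases and without new protein synthesis. Their transcripts are short-lived, and Fosl1 and Fosl2 usually follow later, while Jund is made more steadily. In preadipocytes, AP-1 factors are known to follow adipogenic stimuli early and to act on proliferation and differentiation. The purpose of the study, as its design states it, was to compare gene expression of precursors between the diets.

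Promoter windows from RefSeq (GRCm38.p6) are described for 7 of the 10 genes, all but Fosl1, Egr1 and Ier2. The windows below run from 250 bases before to 50 bases after the annotated start. They are shown because 4 of the 7 carry the core TGACG of the cyclic AMP response element, the letters that CREB, ATF and Jun-ATF dimers are known to read. Capitals mark TGACG on either strand, so that CGTCA in Atf3 is a match on the reverse strand, and they also mark TATAA.
Fos: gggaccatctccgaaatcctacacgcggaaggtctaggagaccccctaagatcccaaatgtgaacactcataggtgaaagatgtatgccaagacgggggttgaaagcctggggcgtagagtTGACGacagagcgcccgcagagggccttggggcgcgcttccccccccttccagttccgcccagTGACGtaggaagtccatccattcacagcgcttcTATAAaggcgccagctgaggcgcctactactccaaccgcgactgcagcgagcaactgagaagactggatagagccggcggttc
Fosb: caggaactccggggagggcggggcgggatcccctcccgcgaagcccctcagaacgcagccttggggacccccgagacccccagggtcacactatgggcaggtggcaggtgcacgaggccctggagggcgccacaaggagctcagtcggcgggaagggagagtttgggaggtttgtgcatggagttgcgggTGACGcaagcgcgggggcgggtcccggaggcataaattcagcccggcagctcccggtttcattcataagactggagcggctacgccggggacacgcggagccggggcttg
Junb: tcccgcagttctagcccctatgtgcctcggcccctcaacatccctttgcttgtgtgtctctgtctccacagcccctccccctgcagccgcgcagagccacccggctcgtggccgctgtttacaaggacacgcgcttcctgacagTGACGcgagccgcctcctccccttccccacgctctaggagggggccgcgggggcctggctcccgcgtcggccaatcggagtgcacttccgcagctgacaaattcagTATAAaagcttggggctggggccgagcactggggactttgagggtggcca
Atf3: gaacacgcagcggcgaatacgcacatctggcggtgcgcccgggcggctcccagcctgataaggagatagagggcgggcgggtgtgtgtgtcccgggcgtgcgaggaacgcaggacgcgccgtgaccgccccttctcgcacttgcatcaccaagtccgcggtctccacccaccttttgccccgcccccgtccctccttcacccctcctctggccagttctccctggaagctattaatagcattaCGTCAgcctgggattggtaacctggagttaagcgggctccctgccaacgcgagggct
The windows are chr12:85473640-85473939 (plus strand) for Fos, chr7:19309996-19310295 (minus strand) for Fosb, chr8:84978699-84978998 (minus strand) for Junb and chr1:191183284-191183583 (minus strand) for Atf3. TGACG lies 129 and 66 bases before the start in Fos, 60 before it in Fosb, 106 before it in Junb and 7 before it in Atf3. It is found in 20.8% of all 32851 promoters of this length. TATAA is in Fos, 33 bases before the start, and in Junb, where it begins 1 base after the annotated start, and in 24.9% of all promoters. The full AP-1 site TGANTCA was in none of the 7 windows (7.81% of all promoters), nor was the full element TGACGTCA (1.79%) or the CArG box read by serum response factor (1.63%). The EGR site GCGGGGGCG was in Fosb and Fosl2 (2.91% of all promoters), clear of the letters marked, and there it overlaps a GC box GGGCGG. A GC box was in 5 of the 7 windows (35.7% of all promoters) and a CCAAT box in 3 (37.4%). All motifs were searched on both strands, and a match says only that the letters are there. An absence holds for these windows alone. It says nothing of bases beyond them or of the promoters of Fosl1, Egr1 and Ier2.

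Between 14.4 and 47.5 M (mega) reads fell on genes in a library, so that in the shallowest library a CPM (counts-per-million) of 1 is about 14.4 reads. CPM here are scaled by TMM, edgeR's correction for library composition. Precursor markers summed to between 5968 and 14758 CPM in every library, and leukocyte markers to between 15.3 and 107 CPM. Depot markers went against the label in 2 libraries. The visceral list (Wt1, Tcf21 and 4 other genes) summed to 22.7 CPM in the library labelled VWAT SD replicate 5, against a highest value of 322 CPM in the same group, and to 201 CPM in the library labelled SWAT SD replicate 5, against a lowest value of 16.8 CPM in that group. Results are therefore also given over 18 libraries without these. Libraries also differed in how the level of a gene followed its GC content. Spearman's correlation across genes between the deviation of a gene in a library and its GC content was -0.64 to -0.22 in VWAT HFD, 0.52 to 0.64 in VWAT SD replicates 2 to 5 but -0.53 in replicate 1, -0.58 to 0.05 in SWAT HFD and -0.15 to 0.64 in SWAT SD. All 10 genes have a GC content above the median of the genes tested (51.0%), between 51.1% in Atf3 and 67.1% in Jund. A fit with a GC correction is therefore given beside the diet results.

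Most of the 10 genes were among the abundant transcripts of these cells. By mean CPM over the 20 libraries, Fosb ranked 13th and Egr1 15th of the genes tested, and Fosl1 ranked 4810th. Together the 10 genes took 1.14% to 3.20% of the reads on genes in a library. The share was 1.14% to 2.04% in VWAT HFD, 1.38% to 3.20% in VWAT SD, 1.68% to 2.23% in SWAT HFD and 2.37% to 3.13% in SWAT SD. VWAT SD replicate 1, at 1.38%, lay inside the VWAT HFD range, and the other 4 VWAT SD libraries took 2.45% or more. A list of 18 heat shock and dissociation genes summed to 8557 to 19696 CPM in VWAT HFD and 8985 to 19167 in VWAT SD. In SWAT the sums were 7981 to 15348 CPM on HFD and 15174 to 19091 CPM on SD. Without a library of undissociated tissue, whether these sums are high cannot be said. Dissociating a tissue is known to induce genes of both lists. No source used here gives the time or temperature of digestion, every library comes from sorted cells, and the part of dissociation in the levels was not tested.

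**Figure D1:**
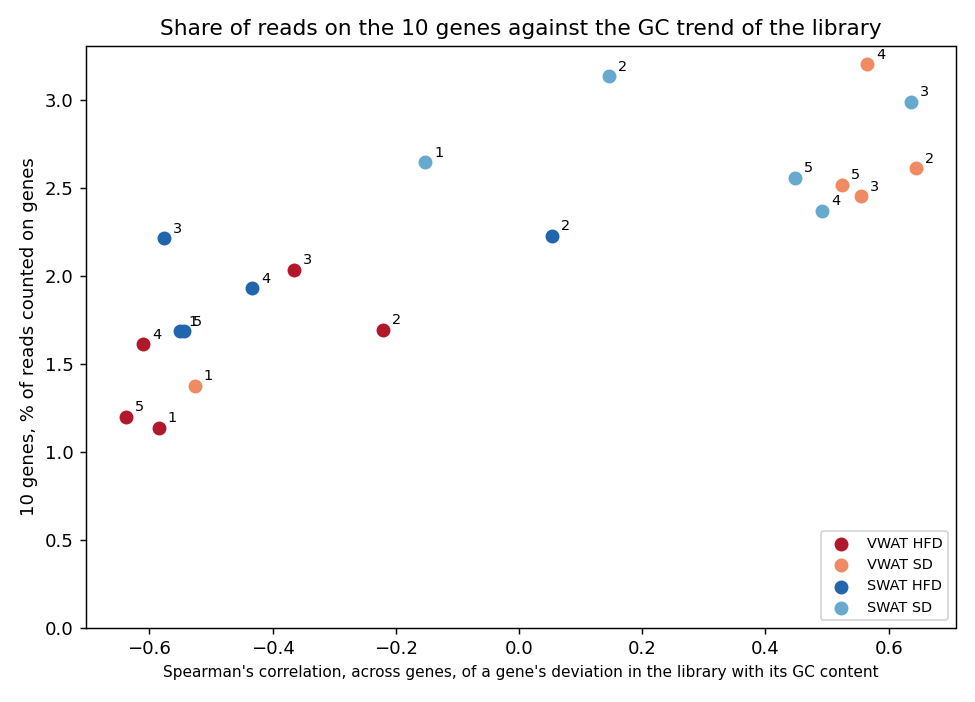
Share of the reads on genes taken by the 10 genes in each of 20 libraries (vertical axis, %) against the GC trend of the library (horizontal axis, Spearman's correlation across genes). Points are libraries, numbered by replicate and coloured by group; VWAT SD replicate 1 lies at -0.53 and 1.38%, among the VWAT HFD libraries, while the other VWAT SD libraries lie at 0.52 or above and 2.45% or more.

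Levels between genes were compared as CPM per kilobase of exon (GENCODE M21 models), as mean ± SD over the 20 libraries. Junb stood highest with 1678 ± 787 CPM per kilobase, followed by Fosb with 1461 ± 500, Jund with 1266 ± 706, Egr1 with 1121 ± 415 and Fos with 916 ± 452. Atf3 (714 ± 241), Jun (484 ± 186) and Ier2 (381 ± 278) came next, and Fosl2 (96.7 ± 26.3) and Fosl1 (14.6 ± 6.67) were lowest. The order differed between groups: Fosb stood above Junb in VWAT HFD (1148 ± 254 against 1054 ± 268) and in SWAT HFD (1203 ± 221 against 1160 ± 211), and in SWAT HFD Fos (1138 ± 329) stood above Jund (813 ± 132). In both SD groups Junb was highest by mean. The ranges of neighbours in the order over all libraries overlapped for every pair other than Fosl2 and Fosl1. Among the Fos proteins, the transcript of Fosb, and not that of Fos, was therefore the most abundant per length by mean, and the late-acting Fosl1 was the least.

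In VWAT, 6 of the 10 genes fell after 3 days of HFD and none rose. Ier2 fell most, to a level 0.272-fold that on SD, the Jun partners Jund and Junb fell to 0.434-fold and 0.444-fold, and Fos, Egr1 and Jun to between 0.556-fold and 0.597-fold. Fosb, Atf3, Fosl2 and Fosl1 did not pass the test. Over all genes tested, 45.7% were called in this comparison, 26% of them in the lower direction and 19.7% in the higher, as shares of the genes tested. The median log2 fold change was -0.79 over the 10 genes and -0.03 over all genes. Changes in the number of cells of a type in the sort and changes in RNA per cell cannot be told apart in such bulk libraries.

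Among the Jun proteins, Junb, a partner of Fos that often restrains Jun, was measured at 1302, 2295, 2374, 2076 and 1489 CPM in VWAT HFD libraries 1 to 5, against 1903, 5157, 4255, 6387 and 3770.3 CPM in VWAT SD libraries 1 to 5. Of the VWAT SD libraries, replicate 1 alone lay within the HFD range, and the other 4 lay above it. The log2 fold change was -1.17 ± 0.27 (SE; edgeR adjusted p = 0.00414). Jund, the Jun protein made most steadily, gave 1004, 1668, 1803, 1107.5 and 1027 CPM in VWAT HFD, against 1439, 4237, 4573, 3193 and 1781 CPM in VWAT SD (log2 fold change -1.20 ± 0.31, edgeR adjusted p = 0.00675). The groups overlapped through VWAT SD replicates 1 and 5. Jun itself, the strongest activator of the family, gave 627, 966, 1279, 1145 and 831 CPM in VWAT HFD, against 716, 1569.6, 1174, 2102 and 2557 CPM in VWAT SD (-0.74 ± 0.28, edgeR adjusted p = 0.0373). Here VWAT SD replicates 1 and 3 lay within the HFD range, and replicate 5, one of the 2 libraries whose depot markers went against the label, was highest.

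Among the Fos proteins, Fos gave 679, 976, 1468, 1126 and 683 CPM in VWAT HFD, against 841, 1452, 1107, 2221 and 3245 CPM in VWAT SD (-0.85 ± 0.34, edgeR adjusted p = 0.0443). VWAT SD replicate 5 was again the highest, and without it the adjusted p was above 0.05: over 18 libraries Fos changed by -0.51 ± 0.31 (edgeR adjusted p = 0.196) and Jun by -0.52 ± 0.28 (edgeR adjusted p = 0.139). Fosb, which is also spliced to a short form known for its stability, gave 3589, 5309, 5407, 4040.1 and 3363 CPM in VWAT HFD, against 4139, 8897, 8638, 7874 and 3655 CPM in VWAT SD. Its log2 fold change of -0.61 ± 0.25 had an edgeR adjusted p of 0.0529, and over 18 libraries it was -0.76 ± 0.23 with an edgeR adjusted p of 0.0158, but with the GC correction it turned to 0.11 ± 0.18 (edgeR adjusted p = 0.687). Of the Fos-related antigens, Fosl2 ranged over 447 to 781 CPM in VWAT HFD and 391 to 949.7 CPM in VWAT SD (-0.14 ± 0.23, edgeR adjusted p = 0.631). Fosl1 was measured at 28.9 to 42.4 CPM in VWAT HFD and at 6.40 to 54.4 CPM in VWAT SD (0.18 ± 0.38, edgeR adjusted p = 0.716). Within VWAT SD, Fosl1 was highest in replicate 1 and lowest in replicate 5, the libraries in which Fos was lowest and highest.

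Of the genes outside the Fos and Jun families, Ier2, a short nuclear response protein, gave 137, 283, 249.97, 180.5 and 127 CPM in VWAT HFD, against 195, 621, 406, 1295 and 1068 CPM in VWAT SD. VWAT SD replicate 1 alone lay within the HFD range, and the log2 fold change was -1.88 ± 0.42 (edgeR adjusted p = 0.00400). Egr1, a zinc finger factor induced through serum response factor, gave 1839, 3696, 4737, 4054.5 and 2540.2 CPM in VWAT HFD, against 2221.5, 6780.4, 6214, 8885 and 5800 CPM in VWAT SD (-0.83 ± 0.29, edgeR adjusted p = 0.0255). Apart from replicate 1, the VWAT SD libraries all lay above the HFD ones. Atf3, a stress-induced ATF protein that pairs with Jun, ranged over 676 to 1719 CPM in VWAT HFD and 762 to 2169.7 CPM in VWAT SD (-0.48 ± 0.27, edgeR adjusted p = 0.147).

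**Figure D2:**
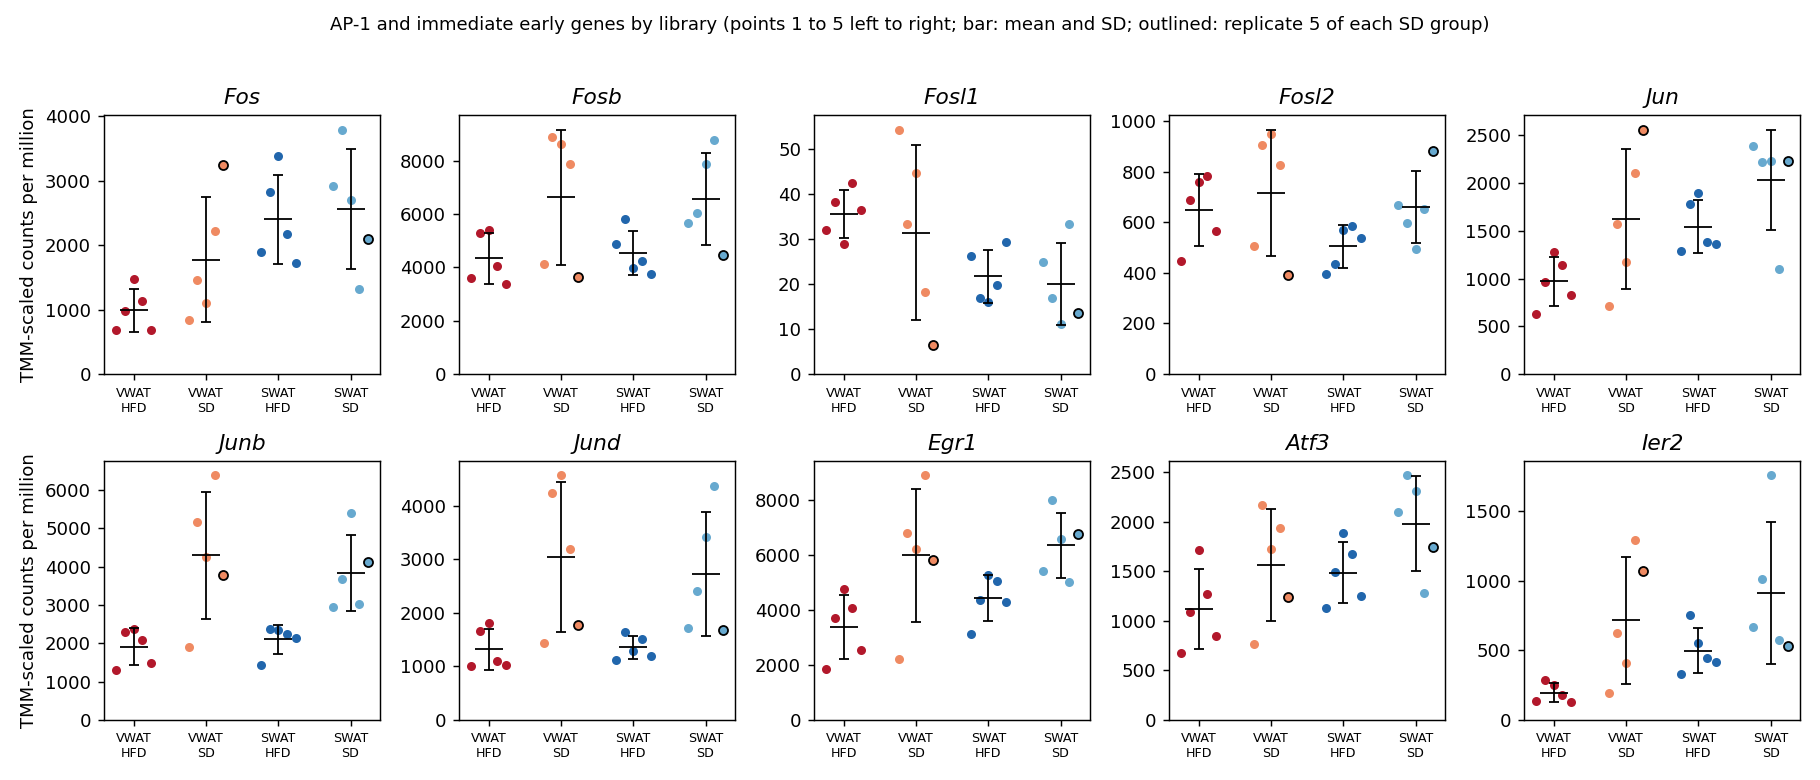
TMM-scaled CPM of each of the 10 genes in every library (points 1 to 5 from left to right within a group; bars are mean and SD, n = 5; linear axes from 0). Points with a black outline are replicate 5 of the SD groups, whose depot markers went against their labels; Junb and Jund are lower in all 5 SWAT HFD libraries than in any SWAT SD library, and Fos, Jun and Ier2 are lower in all 5 VWAT HFD libraries than in any SWAT HFD library.

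For Junb, Ier2 and Egr1, VWAT SD replicate 1 alone made the VWAT groups overlap. No member had groups without overlap in VWAT, where 3.47% of the genes tested lay lower and 5.17% higher in HFD without overlap. Without that library, 8 of the 10 genes were called lower, Fosb and Atf3 included. In that fit 4217 of the 14411 genes tested were called lower and 4288 higher. Ier2, Junb and Jund were called under each of the 20 fits that left out 1 library, while Egr1 was called in 16 of them, Jun in 9 and Fos in 6. Egr1 lost its call without VWAT SD replicate 2 or 4 or VWAT HFD replicate 1 or 5. Fos kept its call without VWAT SD replicate 1 or 3, SWAT SD replicate 3, 4 or 5 or VWAT HFD replicate 3, and Jun without these and without SWAT SD replicate 1 or SWAT HFD replicate 2 or 3. The differences were smaller in the fit with the GC correction. With the GC trend of each library removed, Junb changed by -0.21 ± 0.17, Jund by -0.22 ± 0.17, Egr1 by -0.16 ± 0.24, Fos by -0.25 ± 0.33 and Jun by -0.09 ± 0.26 on the log2 scale (edgeR adjusted p of 0.365 to 0.842). Ier2 changed by -0.95 ± 0.32 (edgeR adjusted p = 0.0459) and was the only member called. Of all 14242 genes in that fit, 1458 were called lower and 1210 higher. Over 18 libraries with the same correction Ier2 changed by -0.68 ± 0.29 (edgeR adjusted p = 0.116) and no member was called. There, 1244 of 14360 genes were called lower and 891 higher. GC-corrected Junb averaged 2518 ± 376 CPM in VWAT HFD and 2917 ± 399 CPM in VWAT SD (SD, n = 5 each). Because the GC trend runs mostly with the diet, a technical trend and a change of GC-rich genes cannot be told apart in these libraries.

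**Figure D3:**
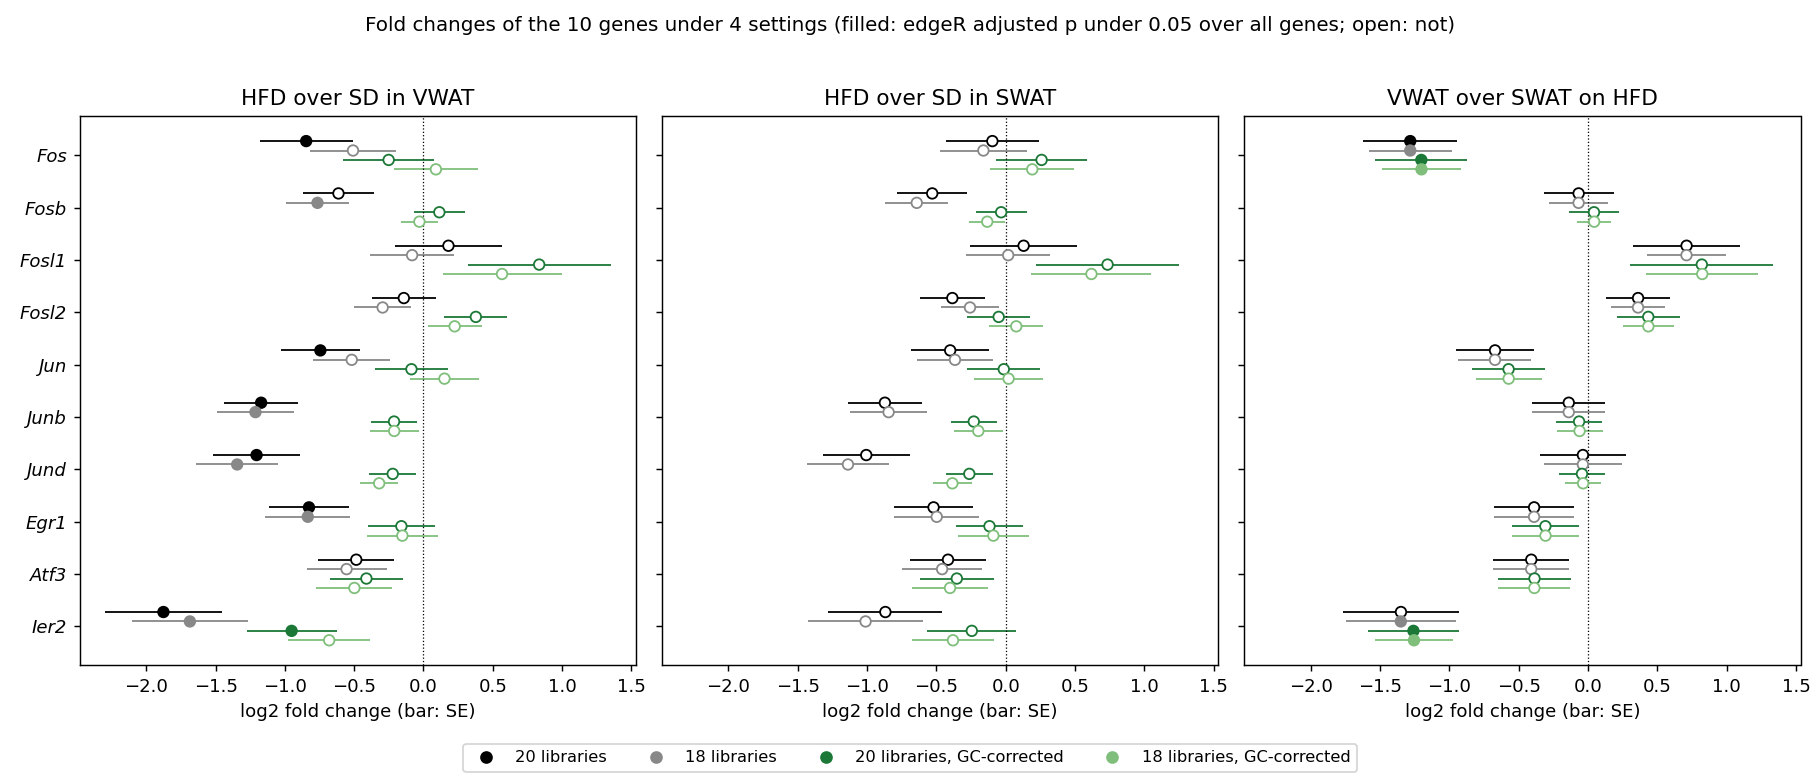
Log2 fold changes (points) with SE (bars) of the 10 genes for HFD over SD in VWAT, HFD over SD in SWAT, and VWAT over SWAT on HFD, each under 4 settings (20 libraries, 18 libraries, and both with GC correction); filled points have an edgeR adjusted p under 0.05 over all genes tested. In VWAT 6 points of the 20-library fit are filled, and 1 (Ier2) with GC correction; in the right panel Fos is filled under all 4 settings, at -1.28 to -1.20.

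In SWAT, edgeR called no member between HFD and SD, where 1.56% of the genes tested were called (0.857% higher and 0.702% lower), and 4 members had an unadjusted p under 0.05, as had 4877 of the 14242 genes. The lowest adjusted p-values were those of Junb and Jund. Both lay lower in every SWAT HFD library than in any SWAT SD library, as did 4.97% of the genes tested (5.62% lay higher). Junb gave 1438, 2368, 2337, 2228 and 2125 CPM in SWAT HFD, against 2959, 3684, 5406, 3029 and 4126 CPM in SWAT SD (log2 fold change -0.87 ± 0.26, edgeR adjusted p = 0.0662). Jund gave 1127, 1648, 1289.5, 1519 and 1194 CPM in SWAT HFD, against 1722, 2415, 3424.5, 4376 and 1679 CPM in SWAT SD (-1.01 ± 0.31, edgeR adjusted p = 0.0692). With a fit of the SWAT libraries alone, or with DESeq2 (adjusted p = 0.0218 and 0.0242), both were called, as they were in edgeR without VWAT SD replicate 1 or SWAT SD replicate 1. Those fits also called more of all genes: 1939 of 13682 with the SWAT libraries alone and 2022 of 14242 with DESeq2. The fit without VWAT SD replicate 1 called 3362 of 14411, and the fit without SWAT SD replicate 1 called 2185 of 14390. With the GC correction Junb and Jund changed by -0.23 ± 0.17 and -0.26 ± 0.17 (edgeR adjusted p = 0.481 and 0.422).

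Fos had a log2 fold change of -0.10 ± 0.33 between the diets in SWAT (edgeR adjusted p = 0.846). It gave 1890, 2819, 3388, 2177 and 1716 CPM in SWAT HFD, against 2913, 3794, 2702, 1311 and 2096 CPM in SWAT SD, and the groups overlapped across most of their ranges. Ier2 gave 330.1, 753, 549, 441 and 416 CPM in SWAT HFD, against 671, 1009.6, 1758.5, 574 and 531 CPM in SWAT SD (-0.87 ± 0.41, edgeR adjusted p = 0.141). Its groups overlapped through SWAT HFD replicates 2 and 3. Jun gave 1289.7, 1784, 1896, 1378 and 1367 CPM in SWAT HFD, against 2391, 2225, 2231, 1105 and 2231 CPM in SWAT SD (-0.40 ± 0.28, edgeR adjusted p = 0.299). All SWAT HFD libraries lay below 4 of the 5 SWAT SD libraries, and SWAT SD replicate 4 lay below them all. The other 5 genes had log2 fold changes between -0.53 (Fosb) and 0.13 (Fosl1), with edgeR adjusted p-values of 0.144 to 0.821. The median over the 10 genes was -0.47, against -0.04 over all genes.

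Whether the diet effect differed between the depots was tested as an interaction, and no member was called, as was no gene at all (0% of the genes tested in edgeR, where 605 had an unadjusted p under 0.05, and 0 genes in DESeq2 and voom). The largest estimates were those of Ier2 (log2 difference -1.01 ± 0.58) and Fos (-0.75 ± 0.47), each with an edgeR adjusted p of 0.942. The calls in VWAT and their absence in SWAT are therefore not shown to differ.

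Between the depots on HFD, Fos was lower in VWAT than in SWAT, at 0.411-fold. Fos gave 679 to 1468 CPM in the 5 VWAT HFD libraries and 1716 to 3388 CPM in the 5 SWAT HFD libraries, which did not overlap (log2 fold change -1.28 ± 0.34, edgeR adjusted p = 0.0252). It was the 1 member called, where 6.45% of the genes tested were (2.82% higher and 3.63% lower). Ier2 (127 to 283 CPM in VWAT HFD, 330.1 to 753 CPM in SWAT HFD) and Jun (627 to 1279 CPM in VWAT HFD, 1289.7 to 1896 CPM in SWAT HFD) did not overlap either, as 8.56% of the genes tested did not in this direction and 6.66% in the other. Their log2 fold changes were -1.35 ± 0.42 (edgeR adjusted p = 0.0554) and -0.67 ± 0.28 (edgeR adjusted p = 0.175). Log2 fold changes were -0.14 ± 0.26 for Junb, -0.04 ± 0.31 for Jund and -0.07 ± 0.25 for Fosb (edgeR adjusted p = 0.830, 0.962 and 0.917). Fosl1 went the other way, with 28.9 to 42.4 CPM in VWAT HFD and 16.1 to 29.4 CPM in SWAT HFD (0.71 ± 0.39, edgeR adjusted p = 0.319).

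The difference of Fos between the depots on HFD was about as large with the GC correction (-1.20 ± 0.33, edgeR adjusted p = 0.0242) and with 18 libraries and the correction (-1.20 ± 0.29, edgeR adjusted p = 0.00543). Ier2 was called as well in both of these fits, with -1.26 ± 0.33 (edgeR adjusted p = 0.0175) and -1.26 ± 0.28 (edgeR adjusted p = 0.00322). Over all genes, the first of them called 1446 of 14242 and the second 2237 of 14360. Ier2 was also called without VWAT SD replicate 1, 4 or 5 or SWAT SD replicate 3 or 5, in fits that called 946 to 1417 genes. The call of Fos was lost when VWAT HFD replicate 1, 2, 4 or 5 or SWAT HFD replicate 2 or 3 was left out, with log2 fold changes of -1.43 to -1.10 and edgeR adjusted p up to 0.0807 over the fits that left out 1 library. Markers of other cells also differed between these groups: 5 of 8 mesothelial markers were higher in VWAT HFD and 2 lower, and the list summed to 184 to 238 CPM in VWAT HFD and 101 to 310 CPM in SWAT HFD. One of 8 epithelial markers was lower in VWAT HFD (summed 0.173 to 2.91 CPM, against 11.0 to 84.2 CPM in SWAT HFD). Their part in the difference of Fos was not tested. No heat shock or dissociation gene of 18 was called between these groups, where 6.45% of all genes tested were called. With so small a share, no call among 18 genes says little. The part of dissociation in the difference of Fos was not tested.

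On SD, no member had groups without overlap (0.0772% of the genes tested in each direction), none was called between VWAT and SWAT, and no gene was (0% of the genes tested in edgeR, where 1009 had an unadjusted p under 0.05; 9 genes in DESeq2 and 0 in voom). Fos gave 841 to 3245 CPM in VWAT SD and 1311 to 3794 CPM in SWAT SD (-0.53 ± 0.33, edgeR adjusted p = 0.785). Over 18 libraries and with the GC trend removed, the log2 fold change was -1.10 ± 0.32 (edgeR adjusted p = 0.0267), and without the correction -0.93 ± 0.33 (edgeR adjusted p = 0.0989).

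The balance of the members within a library was described with ratios chosen after the values were seen, and without a test. Scaling between libraries does not alter such ratios, but the GC trend of a library can. GC content is 55.1% in Fos, 56.7% in Fosb, 60.9% in Ier2 and 62.7% in Junb. The ratio of Fos to Fosb CPM was 0.184 to 0.279 in VWAT HFD, 0.128 to 0.888 in VWAT SD, 0.386 to 0.848 in SWAT HFD and 0.149 to 0.627 in SWAT SD. The highest VWAT SD value, 0.888, was that of replicate 5, and the other 4 lay at 0.282 or below. SWAT SD replicate 5 was at 0.471, within the SWAT HFD range although its depot markers were visceral. The ratio of Fos to Junb was 0.425 to 0.618 in VWAT HFD, 0.260 to 0.861 in VWAT SD, 0.808 to 1.45 in SWAT HFD and 0.433 to 1.03 in SWAT SD. Both ratios separated VWAT HFD from SWAT HFD without overlap. A ratio shows unequal levels and does not say which gene moved.

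**Figure D4:**
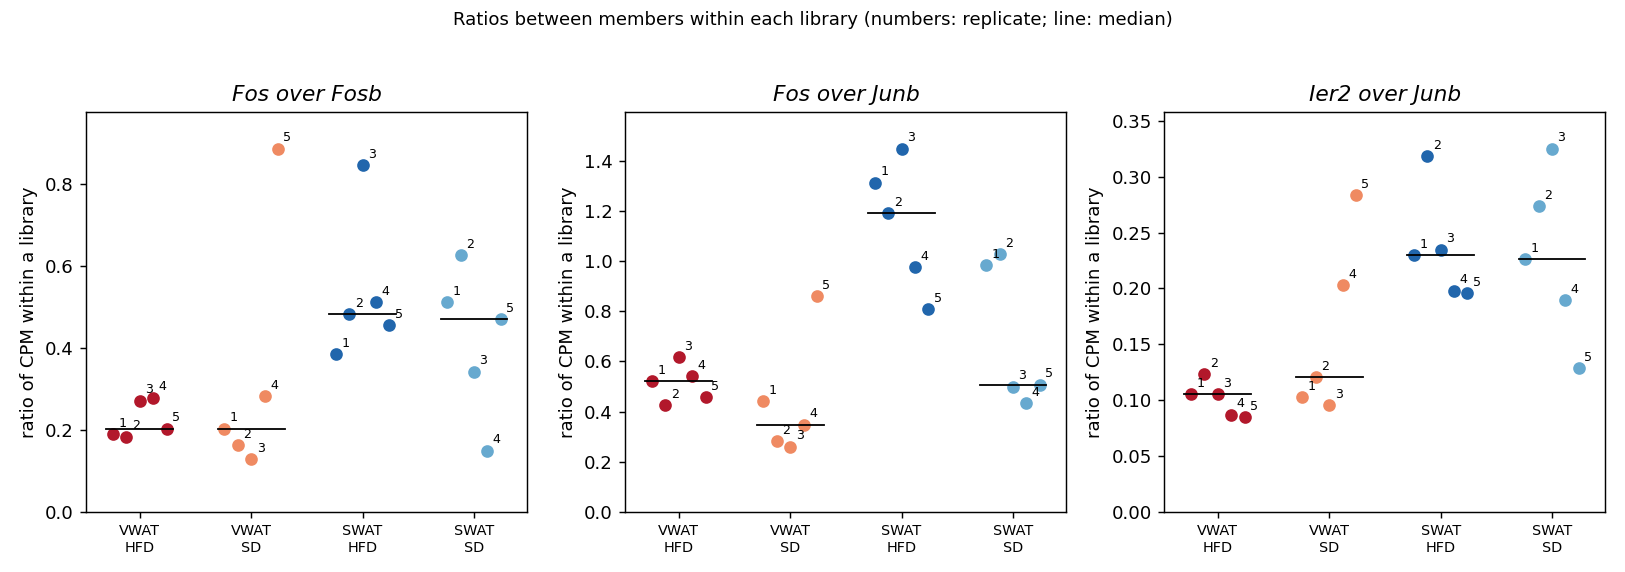
Ratios of CPM within each library (Fos over Fosb, Fos over Junb, Ier2 over Junb; points are libraries numbered by replicate, lines are group medians, linear axes from 0). Fos over Fosb lies at 0.184 to 0.279 in VWAT HFD and at 0.386 to 0.848 in SWAT HFD; VWAT SD replicate 5, at 0.888, stands above the other VWAT SD libraries.

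The pattern of single members over the 20 libraries was set against 10425 genes by the correlation of log2 CPM, as a description in which all genes share the same libraries, depth and GC trends. Nearest to Fos were Hars2 (Pearson's r = 0.938, Spearman's rho = 0.931), Amotl2, Jun, Whamm and Rnf8, with r of 0.910 to 0.938. Nearest to Jun were Dusp1 (r = 0.949, rho = 0.967), the phosphatase that switches MAP kinases off, then Gadd45g, Txnip, Rrnad1 and Whamm. Fosl1 was nearest to Stk40 (r = 0.937, rho = 0.937), Tnfaip2, Srxn1, Adora2b and Sod2.

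Genes around the members did not share one direction in VWAT. Of 40 other immediate early genes, 7 rose and 9 fell on HFD (median log2 fold change 0.09). These counts lie close to the shares over all genes tested, 19.7% higher and 26% lower. Plk2, a kinase induced by serum and stress, was measured at 38.3 to 64.6 CPM in VWAT HFD and 14.3 to 30.0 CPM in VWAT SD (1.42 ± 0.22, edgeR adjusted p = 0.00223), and the growth-arrest gene Btg1 rose by 0.99 ± 0.21 (edgeR adjusted p = 0.00348). Klf2, a zinc finger factor, gave 154 to 491 CPM in VWAT HFD and 310.4 to 1836 CPM in VWAT SD (-1.59 ± 0.38, edgeR adjusted p = 0.00490). Klf6, another factor of that family, rose and Ier3, an apoptosis regulator, fell on HFD in both depots, with log2 fold changes of 0.81 ± 0.21 and -0.68 ± 0.19 in VWAT (edgeR adjusted p = 0.00688 and 0.00862) and 0.87 ± 0.21 and -0.74 ± 0.19 in SWAT (edgeR adjusted p = 0.0477 and 0.0493). They were the 2 genes of this list called in SWAT, and there both lost the call in 16 of the 20 fits that left out 1 library, over 18 libraries (edgeR adjusted p = 0.0646 and 0.0586) and with the GC-corrected fit (edgeR adjusted p = 0.0803 and 0.120). After this correction, 13 of the 40 were higher and 1 lower in VWAT (median 0.44), against 1210 higher and 1458 lower of all 14242 genes. Plk2 and Btg1 kept their calls, and Klf2, Klf6 and Ier3 did not (edgeR adjusted p = 0.0670, 0.0745 and 0.384).

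Of 22 kinases and factors upstream of the members, 6 rose and 9 fell in VWAT. For each list here, the shares over all genes tested were 19.7% higher and 26% lower. Mapk3 (ERK1) gave 109 to 182 CPM in VWAT HFD and 144 to 456 CPM in VWAT SD (-1.32 ± 0.29, edgeR adjusted p = 0.00390). Of the kinases that activate JNK, Map2k7 fell by 1.04 on the log2 scale and Map2k4 rose by 0.98 (edgeR adjusted p = 0.00316 and 0.00668). Srf, the serum response factor, changed by -0.45 ± 0.18 (edgeR adjusted p = 0.0461), but by 0.43 once the GC trend was removed (edgeR adjusted p = 0.0992), and it was called in 3 of the 20 fits that left out 1 library. Of 18 dimer partners and relatives of AP-1, 6 rose and 1 fell. Atf5 fell, with 362 to 591 CPM in VWAT HFD and 656 to 1459 CPM in VWAT SD (-1.26 ± 0.27, edgeR adjusted p = 0.00345), while Atf2 rose by 1.12 ± 0.28 and Atf6 by 0.90 ± 0.23 (edgeR adjusted p = 0.00594 and 0.00638). Of 16 feedback regulators of MAP kinase signalling, 6 rose and 1 fell (median 0.44), with Spred1, an inhibitor of Ras signalling, at 139 to 229 CPM in VWAT HFD and 18.9 to 158 CPM in VWAT SD (1.42 ± 0.39, edgeR adjusted p = 0.00801). The phosphatases Dusp10 and Dusp16 rose by 0.86 ± 0.25 and 0.90 ± 0.29 (edgeR adjusted p = 0.0109 and 0.0174). Once the GC trend was removed, Mapk3, Map2k4 and Dusp10 kept their calls, while Map2k7, Atf5, Atf2, Atf6, Spred1 and Dusp16 lost theirs (edgeR adjusted p of 0.0698 to 0.521).

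Of 21 genes that AP-1 is known to activate in other cells, 11 rose and none fell in VWAT on HFD (median log2 fold change 0.92). Among all genes tested, 19.7% were called higher and 26% lower. Fos, Jun, Junb and Jund were called lower in the same comparison. This list was chosen with earlier results of these data known. Timp1, an inhibitor of matrix proteases, gave 159 to 210.5 CPM in VWAT HFD and 45.7 to 99.5 CPM in VWAT SD, without overlap (1.58 ± 0.21, edgeR adjusted p = 9.86e-04). The cytokine Lif gave 50.8 to 134 CPM in VWAT HFD and 28.3 to 54.1 CPM in VWAT SD (1.34 ± 0.26, edgeR adjusted p = 0.00311). The heme-degrading Hmox1 rose by 1.20 ± 0.29 and the hyaluronan receptor Cd44 by 1.45 ± 0.36 (edgeR adjusted p = 0.00505 and 0.00558). Once the GC trend was removed, 9 of the 21 were higher and none lower, against 1210 higher and 1458 lower of all 14242 genes. Fos, Jun, Junb and Jund were not called in that fit. Over 18 libraries with the correction, 7 of the 21 were higher and none lower, against 891 and 1244 of 14360 genes. In SWAT none of the 21 was called in either direction (median 0.39), with Timp1 at 0.74 ± 0.21 and Cd44 at 1.27 ± 0.36 (edgeR adjusted p = 0.0579 and 0.0584).

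Of the 18 heat shock and dissociation genes, 4 rose and 1 fell in VWAT on HFD (median 0.17), and none was called in SWAT (median -0.27). Among all genes tested, 19.7% were called higher and 26% lower in VWAT, and 1.56% were called in SWAT. The chaperones Dnajb4 and Hspa4 rose in VWAT by 1.26 ± 0.31 and 0.86 ± 0.23 (edgeR adjusted p = 0.00526 and 0.00745), and Hspb8 fell by 0.60 (edgeR adjusted p = 0.00956), calls that all 3 lost with the GC correction (edgeR adjusted p = 0.0508, 0.712 and 0.0890). Dnajb1, a heat-inducible co-chaperone, gave 857 to 2027 CPM in VWAT HFD and 563 to 3557 CPM in VWAT SD (-0.76 ± 0.40, edgeR adjusted p = 0.123), and in SWAT 425 to 1471 CPM on HFD and 1587 to 2471 CPM on SD, without overlap (-1.04 ± 0.41, edgeR adjusted p = 0.0968). Markers of other cells moved between the VWAT groups too. Of 15 leukocyte markers tested 3 were lower on HFD (the list of 16 summed to 15.3 to 45.3 CPM on HFD and 15.8 to 70.8 CPM on SD), as were 2 of 10 endothelial (187 to 326 CPM on HFD and 221 to 476.5 CPM on SD), 3 of 8 mesothelial (184 to 238 CPM on HFD and 105 to 708 CPM on SD), 2 of 5 adipocyte and 8 of 8 epithelial markers. The epithelial list summed to 0.173 to 2.91 CPM on HFD and 0.373 to 155 CPM on SD, and none of it was called over 18 libraries. Of the precursor markers 1 of 9 was higher and 3 lower, of the mural markers none of 6 was called, and of the depot lists 1 of 4 visceral genes tested was higher and 4 of 7 subcutaneous genes lower (1 of 7 over 18 libraries). In SWAT, 1 of 5 adipocyte markers was lower on HFD and no other marker gene of these lists was called. None of the marker genes was at 0 in all libraries of a VWAT group, and their part in the members' differences was not tested.

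**Figure D5:**
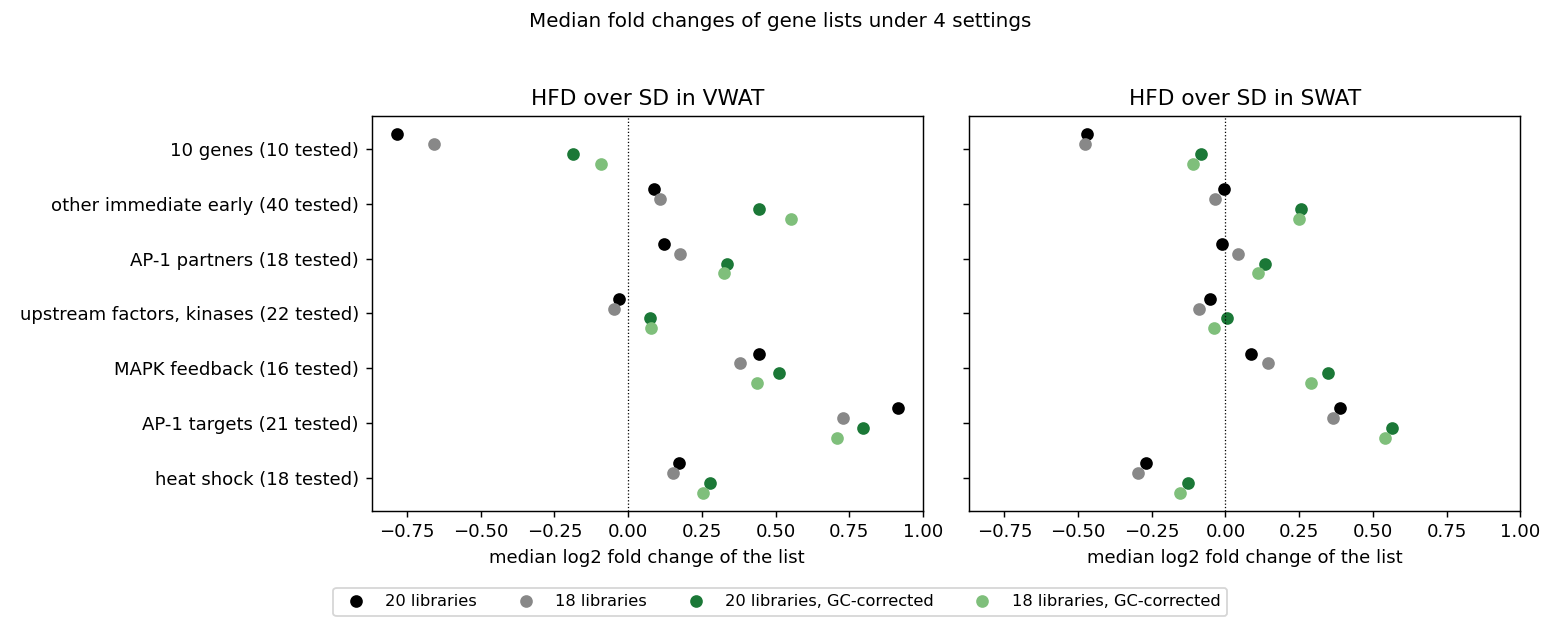
Median log2 fold change (horizontal axis) of the 10 genes and of 6 related lists for HFD over SD in VWAT and in SWAT, under 4 settings (20 libraries, 18 libraries, and both with GC correction). The 10 genes lie at -0.79 in VWAT with 20 libraries and at -0.19 with the GC correction, and the AP-1 targets at 0.92 and 0.80.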

How the data were processed

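RNA was read from sorted precursors in 20 libraries (4 groups of 5), made with a stranded kit from polyadenylated RNA (single reads of 75 bp), as the labels' protocols state. Raw read counts per gene were deposited. The submitters' processing notes name TopHat, HTSeq and mm9. For versions, annotation and strand setting the sources used here give nothing, so counts of genes that overlap an antisense gene are uncertain. Of 33929 rows, 5 summary rows (27.0% of reads on average) and 25 rows with dates for symbols were left out, which leaves 33899 genes. Same-group libraries differed by more than counting error (chi-square over degrees of freedom 20.4 to 453), and each counted as 1 replicate.

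The test was that of edgeR 4.0.16 (R 4.3.3): filterByExpr by group, TMM, 1 mean per group over all 20 libraries, the robust quasi-likelihood test and Benjamini-Hochberg adjustment over 14242 genes (threshold 0.05). Counts were also simulated for HFD against SD in VWAT over 14242 genes. The same steps recovered 32.7% of 98 genes changed by a log2 of 1 and 84.3% of 102 changed by 2. No other gene was changed there, while 45.7% of genes were called in the data. Adjustment is stricter when few genes change, so these shares do not carry over to the data. A change that was not called may still have been missed. SE is the log2 fold change over the square root of F. GC content and exon length came from GENCODE M21 by symbol (14045 of the tested genes, 98.6%). The correction removed a smooth GC trend from each library as an offset. Alternatives were DESeq2 1.42.0, voom (limma 3.58.1), no filter, other size factors, 18 libraries, the GC correction, the unassigned share as covariate, a replicate block, and leaving out each library. Named were all members, the 3 genes of smallest p of each related list in each depot, and the 5 nearest to Fos, Jun and Fosl1; 1 gene is not reported here. The members and lists were chosen with earlier results of these data known. Marker lists cover precursor, leukocyte, endothelial, mesothelial, adipocyte, epithelial, mural and depot genes.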

Additional observations from a re-analysis of the deposited data

Results flagged for a closer look

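Of 40 groups of 5 values (10 genes in 4 groups), 2 held a library far from the other 4, and chance flags about 1 group in 20. Jun was at 1105 CPM in SWAT SD replicate 4, while the other SWAT SD libraries lay between 2225 and 2391 CPM, so that the gap made up 0.870 of the range of the group. Junb was at 1438 CPM in SWAT HFD replicate 1, while the other SWAT HFD libraries lay between 2125 and 2368 CPM (0.739 of the range). In SWAT SD replicate 4 the share of reads assigned to no gene was 9.80%, the highest of the 20 libraries.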

How the results depend on the processing

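For HFD against SD in VWAT, the 6 members called became 1 with GC correction, 0 with 18 libraries and GC correction, 3 with the unassigned share as covariate and 0 with that over 18 libraries, 0 over 14 libraries (those of the 18 under 6% unassigned, so that both choices change at once; VWAT SD replicate 1 is then the only library of its group and is assumed to vary like the other groups), 3 with only the 2 groups compared, and 3 to 8 with 1 library left out. In SWAT, 0 became 2 (Junb and Jund) with DESeq2, the replicate block and the 2 groups alone, and 0 to 2 with 1 library left out. For VWAT against SWAT on SD, 0 became 1 with 18 libraries and GC correction and 6 over the 14 libraries, which rests on that 1 library. On HFD, 1 became 2 with DESeq2, voom, 18 libraries, GC correction, both together, the covariate over 18 libraries and the replicate block, 4 over the 14 libraries and with the 2 groups alone, and 0 to 2 with 1 library left out. Log2 fold changes in VWAT reversed with 18 libraries and GC correction for Fos (0.0897), Jun (0.15) and Srf (0.39), with GC correction for Srf (0.43), and over the 14 libraries for Fos (0.22), Jun (0.42), Egr1 (0.59), Klf2 (0.0156), Ier3 (0.18), Map2k7 (0.10) and Srf (0.0352), none of them called. Of members not called, Fosb and Fosl2 turned to 0.11 and 0.38 with GC correction, Fosl2 to 0.23 with 18 libraries and GC correction and to 0.12 with the covariate, and Fosb, Fosl2, Atf3 and Fosl1 to 0.0543, 0.34, 0.54 and -0.62 over the 14 libraries. The cause of these changes was not tested.

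Same-numbered libraries of 2 groups correlated at -0.66 to 0.59 in their deviations. Between VWAT HFD and SWAT HFD all 5 were positive (0.0922 to 0.55) but not all above 0.1, so the numbers were not taken to pair libraries, and the block is given as a count. With the block 6865 genes and 7 members were called in VWAT, and 2088 genes and 2 members in SWAT. Of all genes, 6502 were called in VWAT, but 2668 with GC correction, 2135 with 18 libraries and GC correction, 1880 with the covariate, 18 with it over 18 libraries and 1 over the 14 libraries. In SWAT 222 were called, but 2022 with DESeq2, 1939 with the SWAT libraries alone, 426 with voom, 372 over the 14 libraries, 92 with 18 libraries, 80 with GC correction (65 higher), 44 without the filter and 0 with either covariate fit. Between depots on HFD 918 were called, but 1446 to 2767 with GC correction, DESeq2, 18 libraries (also with GC correction or the covariate), the 14 libraries or the 2 groups alone. On SD 0 were called, but 1214 to 1737 over 18 or 14 libraries, and in the interaction 0, but 1 with 18 libraries, with or without GC correction. Leaving out 1 library gave 4432 to 8505 in VWAT, 0 to 3362 in SWAT, 460 to 1417 on HFD, 0 to 590 on SD and 0 for the interaction; the highest in VWAT and SWAT came without VWAT SD replicate 1. Of the alternative values of the members, 1376 kept their direction and side of the threshold, 65 lost and 42 gained a call, 5 reversed and 102 moved otherwise. Of those of the other named genes, 1365 kept both, 137 lost and 82 gained a call, 6 reversed and 10 moved otherwise. The fewest reads of a member in a library were 166 (Fosl1 in VWAT SD replicate 5).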
